A study of Mus musculus with 9 samples.

Results

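The 34 genes described here encode ionotropic and metabotropic glutamate receptors and the auxiliary subunits of ionotropic receptors and were listed by name, with earlier results of these data known. All 34 were found once, by symbol, among the 48709 genes listed in the exon counts. RNA was sequenced from hippocampal nuclei that had been sorted for the neuronal antigen NeuN, in 9 libraries from mice aged 6 months, with 3 libraries in each of 3 groups. WT mice were C57BL/6J. Tg4-42 mice, kept homozygous on the same background, carry a murine Thy1 promoter that drives human Aβ4-42 fused to the murine TRH signal peptide, so the peptide is overexpressed from a neuronal promoter rather than from its own gene. The WT group and 1 Tg4-42 group drank plain tap water (vehicle). The other Tg4-42 group drank caffeine at 300 mg/l for 4 months from the age of 2 months. The sample labels name a treatment for the caffeine group only, and the vehicle comes from the methods of the study. No caffeine-treated WT group was analysed here, so an effect of caffeine apart from the transgene was not measured.

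Glutamate is the main excitatory transmitter of the hippocampus. AMPA, NMDA and kainate receptors are ion channels assembled from several subunits, while metabotropic receptors act through G proteins and tune release and excitability. Transmembrane AMPA receptor regulatory proteins (TARPs), cornichons and Neto proteins bind the channels and set their trafficking and kinetics.

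The libraries held between 9342945 and 16376922 counts in genes, and 17361 genes passed the filter on low counts. The neuronal markers Rbfox3, Snap25, Syt1 and Map2 summed to between 5061 and 7601 CPM (a gene's counts per 1e6 counts of its TMM-scaled library) in every library, with none at 0. The Y-linked gene Eif2s3y had between 2904 and 5562 counts per library, and Xist between 6 and 30. Replicates 1 and 2 of every group were run on sequencing lane 6 and replicate 3 on lane 7. The label protocol gives 6 animals per group and the methods of the study give 3, so a library may hold tissue of more than 1 animal. A mouse below stands for a library. The p-values of the main fit use the spread between libraries within groups, estimated over all 9 libraries in one model.

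Of the 34 genes, 31 passed the filter. Grm6, the metabotropic receptor of retinal bipolar cells, had 0 counts in every library, where 3 counts would have been between 0.183 and 0.321 CPM. Grin3b, an NMDA subunit best known from motor neurons, had 4 counts in all, and Grin2c, typical of cerebellum and glia, had 59. These 3 were not detectable at a level that allows a test, and 32.1% of the exon bases of Grin3b and 11% of those of Grm6 are shared with antisense genes. The library kit keeps no strand, so reads from antisense partners cannot be separated. The shared portion was 13.5% for Grin1, 9.7% for Grin2d, 9.6% for Grm2, and 5.9% or less for the other members.

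Levels between genes were compared as CPM per kilobase of exon. The AMPA subunits Gria2 and Gria1 stood highest. In WT mice Gria2, whose edited subunit limits calcium entry, was at 292 ± 36.2 CPM per kilobase (mean ± SD, n = 3), and Gria1, the subunit most tied to activity-dependent insertion, was at 188 ± 34.5. They were followed by Grm5, the postsynaptic group I metabotropic receptor, at 115 ± 16.3, and by Grm7, a presynaptic group III receptor, at 82.7 ± 8.29. Cnih2, a cornichon that slows AMPA receptor closing, was at 78.6 ± 24.9, which overlapped the level of Grm7. Gria3 at 56.7 ± 7.0, Gria4 at 52.9 ± 10.7 and Cacng3 at 51.9 ± 9.54 did not differ beyond their spread.

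Among NMDA subunits, the GluN2 genes Grin2a (35.1 ± 2.96 CPM per kilobase) and Grin2b (21.9 ± 1.40) lay near the obligatory Grin1 (24.5 ± 3.55). Grin3a, which lowers calcium permeability, was at 6.26 ± 0.38 and Grin2d at 0.384 ± 0.072. The kainate subunits Grik2 (18.3 ± 1.81) and Grik1 (18.1 ± 4.02) had similar levels, above Grik4 (7.69 ± 0.21) and Grik5 (6.11 ± 1.49), the high-affinity subunits, and Grik3 (3.12 ± 0.38). Of the auxiliary genes, Neto2 was at 12 ± 1.40 and Neto1 at 9.27 ± 0.24. Cacng8, coding for TARP γ8, was at 1.77 ± 0.10 in these nuclei, and Cacng7 was lowest of the tested members at 0.360 ± 0.038. These levels are of nuclear RNA over annotated exons, and the proteins were not measured.

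**Figure D1:**
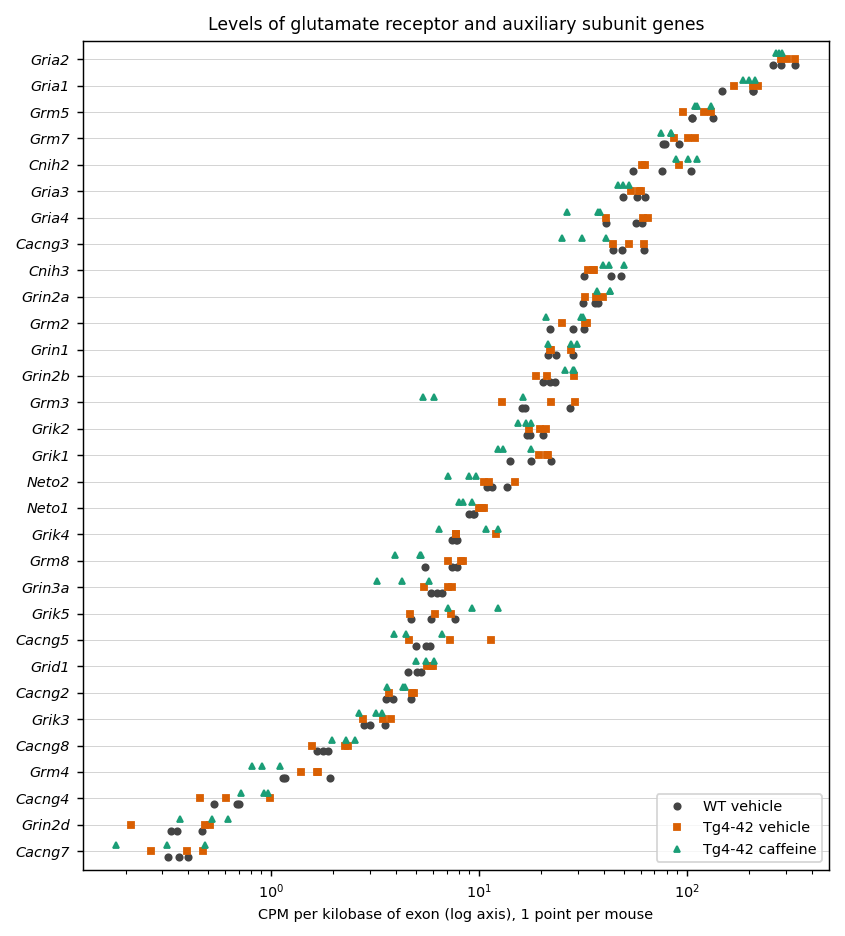
Level of each of the 31 tested members, in CPM per kilobase of exon on a log axis, with 1 point per mouse and colours for the 3 groups. Gria2 and Gria1 lie at the top, and Grin2d and Cacng7 at the bottom.

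The share of each subunit in the per-length sum of its subfamily was taken in each mouse. Gria2 made up 49.5% ± 0.65 (SD, n = 3) of the per-length AMPA sum in the WT group, 49.5% ± 0.67 in the Tg4-42 vehicle group and 49.6% ± 1.35 in the caffeine group, and all ranges overlapped. Gria4, a subunit abundant in parvalbumin interneurons, held 9.03% ± 1.95, 9.06% ± 2.32 and 6.07% ± 1.15 in that order, and the caffeine range overlapped that of the Tg4-42 vehicle group but not that of the WT group. Among the GluN2 genes Grin2a held 61.0% ± 2.97, 61.0% ± 2.76 and 59.1% ± 3.10 in the same order of groups, again with overlap. Cacng3 held 80.7% ± 2.14, 77.2% ± 6.29 and 71.5% ± 6.89 of the TARP sum, with overlap between the caffeine and Tg4-42 vehicle groups and none between the caffeine and WT groups. These shares are descriptions of composition and carry no test.

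The comparison of vehicle-treated Tg4-42 with vehicle-treated WT mice asks what the transgene does to these genes. No member of the 31 passed an adjusted p of 0.05 in edgeR's quasi-likelihood test with Benjamini-Hochberg adjustment, against 0.0979% of all tested genes. At an unadjusted p under 0.05, 0 members were lower and 0 higher, where the background was 1.09% and 1.65% of all tested genes. DESeq2 and limma-voom with sample quality weights also called 0 members. The fitted log2 fold changes lay between −0.25 (Cnih3) and 0.52 (Cacng5). The median over the members was 0.09, beside 0.00 over all genes. Of the members, 27 of 31 were above 0, beside 8770 of 17361 genes. The sign changed under at least 1 alternative processing for 19 of the 31, none of them larger than 0.13 in size. Leaving out a mouse moved the lowest and highest of these values. Cacng5 lay between 0.13, without vehicle Tg4-42 replicate 2, and 0.78, without replicate 1 of that group. Cnih3 lay between −0.40, without WT replicate 1, and −0.11, without WT replicate 2.

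Groups did not overlap for 2 higher members (6.45%, background 3.57%) and for 0 lower members (background 3.16%). Grid1, a delta receptor that organises synapses, was above every WT mouse in each vehicle-treated Tg4-42 mouse, at 33.7, 35.7 and 35.0 CPM against 27.1, 31.3 and 30.2, with a log2 fold change of 0.24 ± 0.13 (SE) and an adjusted p of 1 by edgeR. Neto1, an auxiliary subunit of kainate receptors, showed the same order, at 83.7, 86.7 and 88.6 CPM against 75.2, 78.8 and 78.3. With 3 mice against 3, an exact two-sided permutation test cannot give a p below 0.1, which both genes had.

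**Figure D2:**
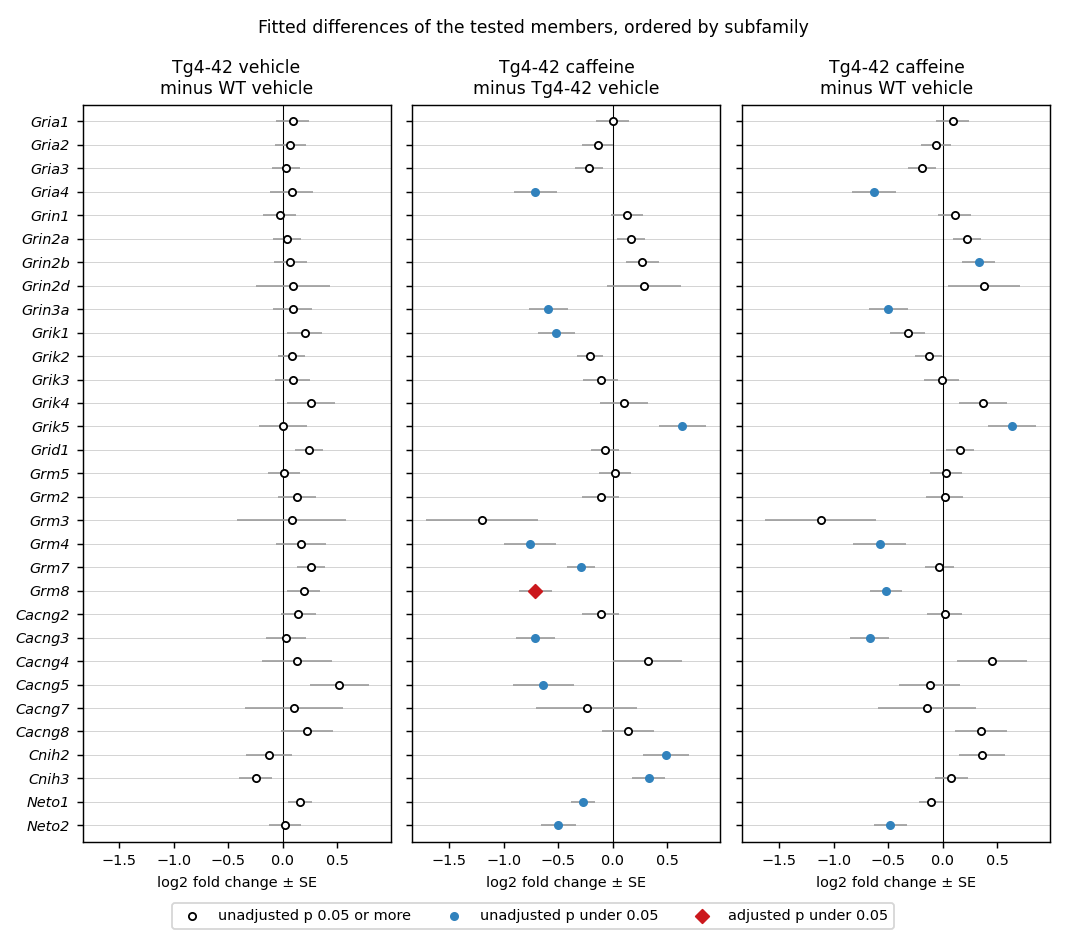
Fitted log2 fold change ± SE of each tested member in the 3 comparisons, ordered by subfamily, with the filled symbols marking unadjusted p under 0.05 and the diamond adjusted p under 0.05. Grm8 is the only diamond, in the caffeine against vehicle panel, and no member is filled in the Tg4-42 vehicle against WT panel.

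The comparison of caffeine-treated with vehicle-treated Tg4-42 mice asks what caffeine does on the transgenic background. Grm8, a presynaptic group III metabotropic receptor, fell by 0.71 on the log2 scale (SE 0.15) to 0.610 of the vehicle level, with an adjusted p of 0.0457 by edgeR, and was the only member of 31 called, against 0.881% of all tested genes. The other tested group III receptors had lower values, Grm4 at 0.592 and Grm7 at 0.816 of the vehicle level, and neither passed the adjusted test. The cornichons Cnih2 and Cnih3 and the kainate subunit Grik5 had higher values, 1.40, 1.26 and 1.56 times the vehicle level, and did not pass it either. Over the 31 tested members the median log2 fold change was −0.11, beside −0.01 over all genes.

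At an unadjusted p under 0.05, 10 members were lower, 32.3% of those tested, where the background was 9.82%, and 3 were higher, 9.68%, where it was 7.15%. Groups did not overlap for 9 lower members, 29% against a background of 12.6%, and for 1 higher member, 3.23% against 10.4%. The lower members were Gria4, Grin3a, Grik1, Grm4, Grm7, Grm8, Cacng3, Cacng5, Neto1 and Neto2. The members were listed with earlier results of these data known, and no test was made over the list.

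Grm8 (chromosome 6, 27275119 to 28135178, minus strand, GRCm38) stood at 51.8, 52.2 and 39.1 CPM in the caffeine-treated mice, at 81.5, 70.3 and 83 in the vehicle-treated Tg4-42 mice and at 73.4, 54.8 and 77.5 in WT mice. Every caffeine-treated mouse was below every mouse of both other groups, and WT replicate 2 was the lowest of the remaining animals. The call was lost without any of caffeine replicate 2 (adjusted p = 0.0712 by edgeR), caffeine replicate 3 (0.297), vehicle Tg4-42 replicate 1 (0.0973) or vehicle Tg4-42 replicate 3 (0.246), when lane was a covariate (0.0668) and when exon length was corrected for (0.0509), while the log2 fold change stayed between −0.78 and −0.59. By comparison, no gene of the whole table was called without caffeine replicate 3 or without vehicle Tg4-42 replicate 3.

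Among the AMPA-related genes, Gria4 was at 242, 237 and 167 CPM in caffeine-treated mice, 390, 259 and 410 in vehicle-treated Tg4-42 mice and 384, 257 and 359 in WT mice. Its log2 fold change was −0.71 ± 0.20 (SE), with an adjusted p of 0.101 by edgeR. Cacng3, coding for the TARP γ3 that carries AMPA receptors to the surface, was at 114, 70.0 and 87.0 CPM after caffeine against 147, 122 and 173 in vehicle-treated Tg4-42 mice and 136, 123 and 174 in WT mice, a log2 fold change of −0.71 ± 0.18 with an adjusted p of 0.0819. In both genes every caffeine-treated mouse was below every vehicle-treated mouse of both genotypes. Gria1 and Gria2 differed by 0.00 ± 0.15 and −0.14 ± 0.14 on the log2 scale.

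Neto2, which slows kainate receptor desensitisation, was at 54.8, 59.6 and 43.7 CPM after caffeine against 64.8, 68.3 and 91.2 in vehicle-treated Tg4-42 mice (adjusted p = 0.12 by edgeR). Neto1 was at 67.3, 70.3 and 77.9 against 83.7, 86.7 and 88.6 (adjusted p = 0.235). Grik1 was at 83.4, 120 and 87.6 CPM against 145, 131 and 143, with an adjusted p of 0.128. These groups did not overlap, and the exact two-sided permutation p was 0.1, the smallest possible, for each. Grik5 moved the other way, at 36.6, 47.7 and 63.8 CPM against 24.2, 38.1 and 32.0, with overlapping groups and an adjusted p of 0.167 by edgeR. Per length, Grik1 held 35.4% ± 3.26 of the kainate sum in vehicle-treated and 26.7% ± 3.01 in caffeine-treated mice, and Grik5 held 10.3% ± 2.13 and 17.7% ± 4.31, with no overlap for either.

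Grm3, a group II receptor of both neurons and glia, had the largest fitted difference, a log2 fold change of −1.20 ± 0.51 (SE), with an unadjusted p of 0.0514 and an adjusted p of 0.299 by edgeR. Without caffeine replicate 1 the log2 fold change was −1.89 (adjusted p = 0.0341 by edgeR), and over the fits that left out each mouse it lay between −1.89 and −0.90. Grm3 was at 49.7, 16.5 and 18.6 CPM after caffeine, 67.9, 39.3 and 88.3 in vehicle-treated Tg4-42 mice and 49.0, 51.0 and 84.0 in WT mice. Caffeine replicate 1 lay among the vehicle-treated mice, and the other caffeine-treated mice were below all of them. The cornichons differed from most members in direction. Cnih2 was at 121, 140 and 154 CPM after caffeine against 83.3, 125 and 86.1 in vehicle-treated Tg4-42 mice, with vehicle replicate 2 overlapping. Cnih3 was at 108, 116 and 137 against 98.3, 92.3 and 97.3, without overlap, and both had an adjusted p over 0.05 by edgeR (0.264 and 0.268).

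**Figure D3:**
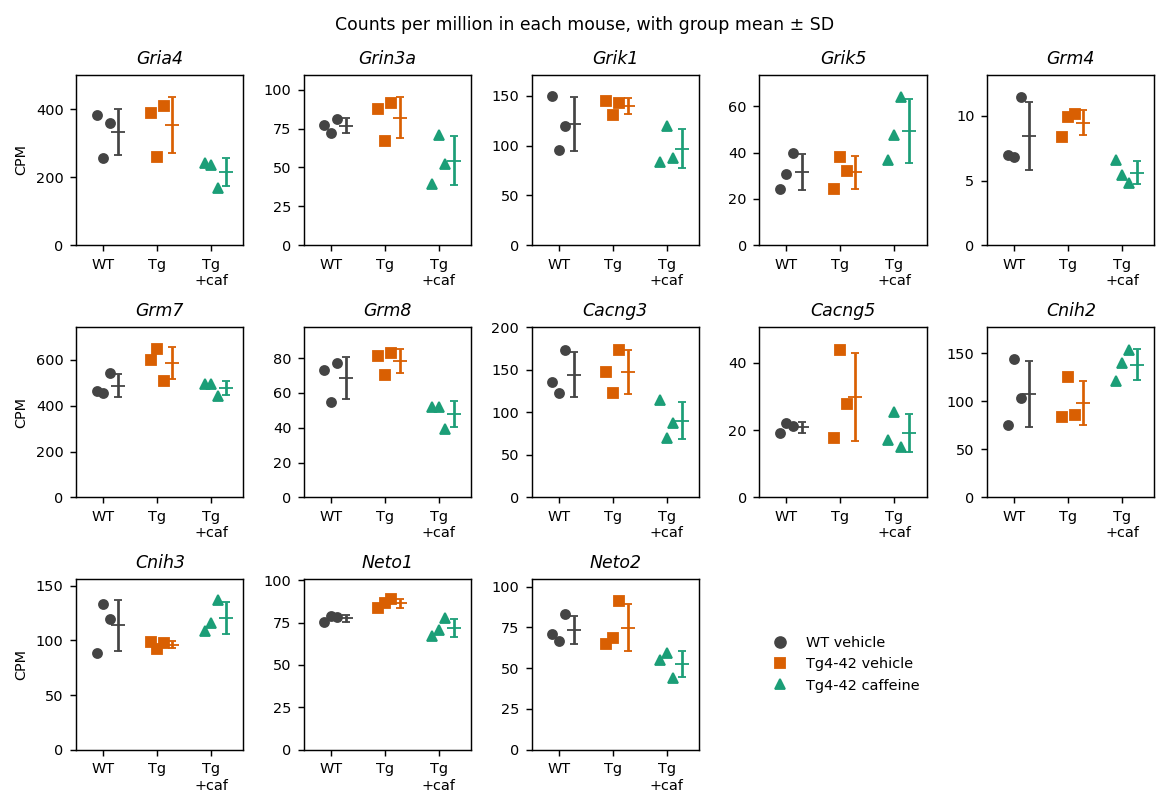
CPM of the 13 members with an unadjusted p under 0.05 between caffeine-treated and vehicle-treated Tg4-42 mice, 1 point per mouse, with the group mean ± SD beside the points. Gria4, Grm8 and Cacng3 are lower in each caffeine-treated mouse than in each vehicle-treated mouse, and Cnih2 and Grik5 overlap between groups.

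Of the remaining lower members, Grin3a was at 39.6, 71.1 and 52.4 CPM after caffeine against 87.6, 67.2 and 91.6 in vehicle-treated Tg4-42 mice (adjusted p = 0.116 by edgeR), with overlap through caffeine replicate 2. Grm4, the least abundant tested group III receptor, was at 6.62, 5.39 and 4.84 against 8.33, 9.95 and 10.1 CPM, without overlap (adjusted p = 0.129). Grm7 was at 493, 494 and 442 against 597, 646 and 509 CPM, also without overlap (adjusted p = 0.268). Cacng5, coding for the TARP-like γ5, overlapped, at 17.1, 25.5 and 14.9 against 17.8, 43.8 and 27.9 CPM (adjusted p = 0.258).

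The other 18 tested members had an unadjusted p of 0.05 or more. The NMDA subunits Grin1, Grin2a, Grin2b and Grin2d had log2 fold changes of 0.13, 0.17, 0.27 and 0.29, all with overlapping groups. Gria3 was at 519, 461 and 487 CPM after caffeine against 592, 534 and 581, a log2 fold change of −0.22 ± 0.13 (SE) without overlap. Grik2 differed by −0.21 ± 0.12 and Grid1 by −0.07 ± 0.13, and Grm5, whose level was among the highest, by 0.02 ± 0.15. Among the less abundant TARPs, Cacng4 differed by 0.32 ± 0.32. Per length, Cacng2 (stargazin) held 6.53% ± 0.83 of the TARP sum in vehicle-treated and 9.21% ± 0.90 in caffeine-treated mice without overlap, while its own level differed by −0.11 ± 0.17 on the log2 scale.

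Within the lanes, of which lane 7 held 1 mouse per group, the values were as follows for members chosen on both lanes together, so that a shared direction is no separate evidence. The log2 difference between caffeine-treated and vehicle-treated Tg4-42 mice was −0.54 in lane 6 and −1.08 in lane 7 for Grm8, −0.41 and −1.29 for Gria4, and −0.58 and −0.99 for Cacng3. For Neto2 it was −0.22 and −1.05, and for Grik5 it was 0.45 and 0.99. Of the 13 members at an unadjusted p under 0.05, 11 had the larger difference in lane 7. Grm7 (−0.33 and −0.20) and Neto1 (−0.31 and −0.18) did not. Lane 6 values average 2 mice per group and lane 7 values come from 1, so their sizes do not have a like spread. The share over all genes was not taken.

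Markers of cell types differed between the same groups. Dentate granule markers summed to between 797 and 1068 CPM in caffeine-treated and between 348 and 717 in vehicle-treated Tg4-42 mice, with 8 of 8 higher and 2 called. Interneuron markers summed to between 992 and 1110 CPM against 1222 to 1871, with 10 of 11 lower and 1 called. Over all tested genes, 8420 of 17361 had a log2 fold change above 0 and 0.881% were called. CA1 pyramidal markers summed to between 448 and 480 against 506 to 599, with 5 of 6 lower. Subiculum and neocortex markers summed to between 122 and 165 against 191 to 214, with 5 of 6 lower. CA2 and CA3 markers summed to between 201 and 232 against 177 to 209, with 4 of 5 higher. In each of these lists 0 were called. Glial markers were also detected. Astrocyte genes summed to between 24.8 and 42.3 against 51.0 to 62.9 CPM (6 of 6 lower), and oligodendrocyte genes to between 229 and 335 against 332 to 463 (5 of 6 lower). Genes of oligodendrocyte precursors summed to between 15.3 and 21.5 against 17.5 to 20.6 (3 of 4 lower). Microglia genes summed to between 37.7 and 46.5 against 46.8 to 70.3 (6 of 6 lower). In each glial list 0 were called. No marker of these lists was at 0 in every library, and their part in the results was not tested. Fewer nuclei of a type and less RNA per nucleus cannot be told apart in these pooled nuclei.

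**Figure D4:**
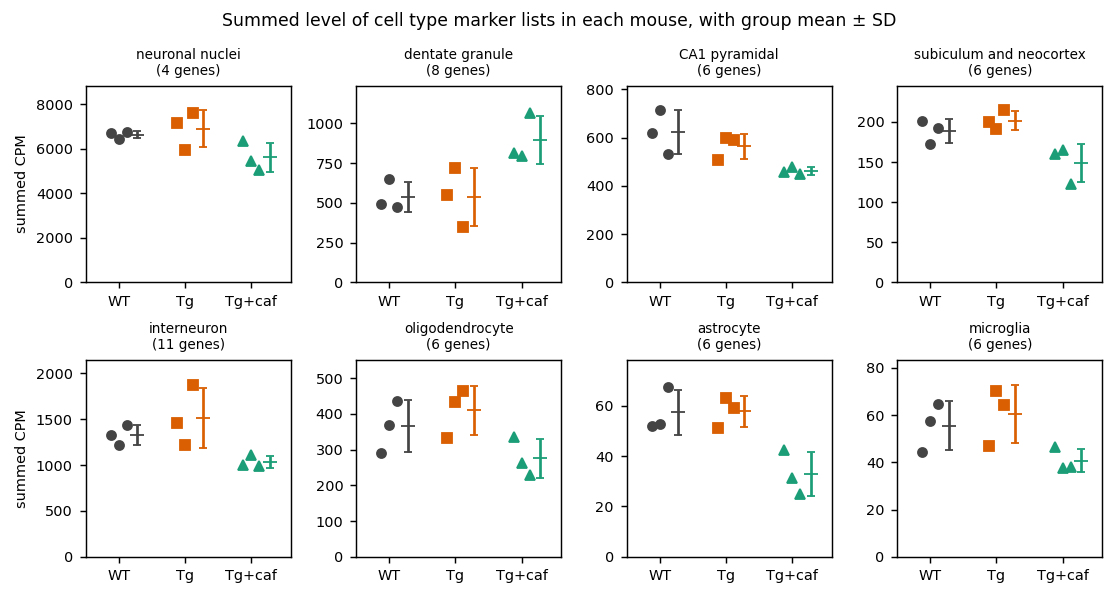
Summed CPM of cell type marker lists in each mouse by group, with the group mean ± SD. Dentate granule markers lie above, and interneuron, subiculum and neocortex, and astrocyte markers below, the vehicle-treated groups in all 3 caffeine-treated mice.

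The comparison of caffeine-treated Tg4-42 with vehicle-treated WT mice shares libraries with both others, so its values are given beside them and not as separate evidence. No member was called, against 0.415% of all tested genes, while DESeq2 called 3 (Cacng3, Gria4 and Grm8), against 1.79% of the 30813 genes it fitted. At an unadjusted p under 0.05, 6 members were lower (19.4%, background 8.65%) and 2 were higher (6.45%, background 6.78%). Cacng3 had a log2 fold change of −0.67 ± 0.18 (SE), with an adjusted p of 0.105 by edgeR. Those of Gria4, Grm8 and Neto2 were −0.63, −0.52 and −0.48, and those of Grin3a and Grm4 −0.50 and −0.58. Grik5 was 0.64 higher and Grin2b, the GluN2B subunit of slower NMDA currents, 0.33 higher, with adjusted p-values of 0.184 and 0.294. The median over the members was −0.01, equal to that of all genes.

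Other genes of the glutamate synapse were read in the same fit as 4 lists, and none of these genes was called in any of the 3 comparisons. Of 18 other AMPA receptor partners and trafficking genes, 1 was lower and 1 higher at an unadjusted p under 0.05 between caffeine-treated and vehicle-treated Tg4-42 mice, where the background over all genes was 9.82% lower, 7.15% higher and 0.881% called. The lower gene was Olfm3, coding for an AMPA receptor partner, at a log2 fold change of −0.97 ± 0.23 (SE) and an adjusted p of 0.0706 by edgeR, and the higher gene was Shisa6, at 0.58 ± 0.22. Of 14 receptor-anchoring scaffolds 1 was lower (Dlg2, −0.40) and 1 higher (Shank2, 0.28). Of 13 genes for glutamate synthesis, vesicular loading and uptake 3 were lower and 0 higher. These were Slc38a1 (−0.38 ± 0.12), the vesicular transporter Slc17a6 (−0.90 ± 0.35) and Glul (−0.45 ± 0.19), with overlapping groups for Slc17a6 alone. Of 14 effectors of metabotropic receptors 1 was lower (Plcb4) and 3 higher (Gnaq, Prkca and Kcnj6). The lists were fixed with earlier results known.

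Promoter windows of the 250 bases before a RefSeq start (GRCm38.p6) were found for 23 of the 34 members, 28 windows in all. The GC box GGGCGG, on either strand, was in 50.0% of these windows and in 32.7% of all 32851 windows of this length. Windows were counted for each start and can overlap, as those of Grm7 do, which hold the same GC box. The cAMP response element core TGACG, on either strand, was in 7.1% against 17.8%, the full palindrome TGACGTCA in 0 windows against 1.55%, and TATAAA in 3.6% against 12.4%. The median GC content was 62.0% against 52.4%, with 10.5 CpG against 6 per window. The windows of 3 members with lower values (Grm8, Gria4 and Neto2) and 3 with higher values (Grik5, Cnih2 and Cnih3) after caffeine are shown for their sequence context, with a GC box in capitals. They were chosen after the values were seen, and a match is a description, not a binding site.
Grm8, chr6:28135179-28135396, minus strand: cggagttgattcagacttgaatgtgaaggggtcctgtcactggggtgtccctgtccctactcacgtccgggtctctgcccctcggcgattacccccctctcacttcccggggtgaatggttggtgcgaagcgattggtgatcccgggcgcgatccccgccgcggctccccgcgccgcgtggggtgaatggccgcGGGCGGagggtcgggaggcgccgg
Gria4, chr9:4796235-4796484, minus strand: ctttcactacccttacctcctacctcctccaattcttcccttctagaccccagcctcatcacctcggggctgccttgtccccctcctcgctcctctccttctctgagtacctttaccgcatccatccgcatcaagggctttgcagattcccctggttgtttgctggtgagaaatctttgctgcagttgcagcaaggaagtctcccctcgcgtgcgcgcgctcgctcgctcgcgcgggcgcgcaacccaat
Neto2, chr8:85700925-85701174, minus strand: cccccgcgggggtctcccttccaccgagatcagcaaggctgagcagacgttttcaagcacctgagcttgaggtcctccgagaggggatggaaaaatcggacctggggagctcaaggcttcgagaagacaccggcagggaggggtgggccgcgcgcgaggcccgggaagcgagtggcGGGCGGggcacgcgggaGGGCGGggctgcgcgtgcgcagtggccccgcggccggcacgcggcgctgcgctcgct
Grik5, chr7:25072370-25072619, minus strand: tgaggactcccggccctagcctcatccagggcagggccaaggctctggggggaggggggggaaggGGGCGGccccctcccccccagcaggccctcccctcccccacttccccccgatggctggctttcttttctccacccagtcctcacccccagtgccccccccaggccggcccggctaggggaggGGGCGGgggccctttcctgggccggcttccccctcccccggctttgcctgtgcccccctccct
Cnih2, chr19:5098522-5098771, minus strand: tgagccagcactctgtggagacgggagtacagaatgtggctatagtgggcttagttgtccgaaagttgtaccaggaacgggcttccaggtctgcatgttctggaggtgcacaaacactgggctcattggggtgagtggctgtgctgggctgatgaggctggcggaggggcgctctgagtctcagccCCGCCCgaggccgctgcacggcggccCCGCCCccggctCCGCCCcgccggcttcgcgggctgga
Cnih3, chr1:181352378-181352627, plus strand: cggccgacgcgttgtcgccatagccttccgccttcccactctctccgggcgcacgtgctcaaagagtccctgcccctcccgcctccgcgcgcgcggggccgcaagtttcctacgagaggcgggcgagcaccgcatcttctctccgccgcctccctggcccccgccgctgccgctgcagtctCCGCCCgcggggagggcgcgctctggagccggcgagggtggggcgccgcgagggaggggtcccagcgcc
Among the 6 windows shown, that of Gria4 held no GC box and the others between 1 and 3, and none held TGACG or TATAAA. Grm8 and Neto2 have other annotated starts, whose windows are not shown. A Grm8 window at chr6:28134422-28134671 held 1 TGACG, and a Neto2 window at chr8:85691010-85691259 held 0 GC boxes. For Grm8 only the 218 bases before the most upstream annotated start are given.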

How the data were processed

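The deposited files hold whole-number exon counts per gene for 9 libraries, which the authors made from reads aligned with STAR to mm10 and counted with featureCounts. Gene symbols, positions and exon lengths came from GENCODE M21 (GRCm38). Genes were tested with edgeR 4.0.16 in R 4.3.3 (TMM scaling, filterByExpr with a minimum count of 10, robust quasi-likelihood F test) in one model over the 3 groups, with Benjamini-Hochberg adjustment over 17361 tested genes and a threshold of 0.05. CPM used TMM-scaled libraries. The common biological coefficient of variation was 0.163. Exact permutation tests used log2(CPM + 0.5). DESeq2 1.42.0, limma 3.58.1 (voom with sample quality weights), RLE and upper-quartile scaling, other filters, the compared groups alone, lane as covariate and leaving out each mouse were alternatives, and corrections for exon length and GC content were added after the data were seen. Scripts were tested on simulated data. The named genes are all 34 members, together with the pathway and marker genes a result turns on. The members and lists were chosen with earlier results of these data known. Replicate numbers were given in accession order and pair no samples.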

Additional observations from a re-analysis of the deposited data

How the results depend on the processing

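Between caffeine-treated and vehicle-treated Tg4-42 mice, 1 member was called, against 0.881% of all genes. With DESeq2 3 were called (Cacng3, Gria4 and Grm8), against 2.42%. With limma-voom and sample quality weights together 4 were called (also Grm3), against 3.56%, and with no filter on low counts 10, against 3.2%. With lane as covariate 0 were called, against 0.0518%, and with the correction for exon length 0, against 0.397%. Leaving out a mouse gave 0 to 3, against 0% to 1.93%. The median log2 fold change of members, −0.112, was −0.144 with limma-voom and these weights, −0.07 with the exon-length correction and −0.175 to −0.075 without a mouse. At an unadjusted p under 0.05, the 10 lower and 3 higher members became 7 and 1 without vehicle Tg4-42 replicate 3. They were 8 and 0 without caffeine replicate 3, and 7 and 3 with the exon-length correction. Over all genes, the 1705 lower and 1241 higher of 17361 became 1028 and 841 of 17761 without that vehicle mouse. These were 1027 and 614 of 17760 without that caffeine mouse, and 1414 and 1660 of 17361 with the exon-length correction. Against WT, 0 members were called for caffeine (0.415% of all genes), 3 with DESeq2 (1.79%) and 7 with no filter (2.79%). Leaving out a mouse gave 0 to 2 members, where 0.0901% to 1.62% of all genes were called. For vehicle-treated Tg4-42 against WT mice the median, 0.093, was 0.052 to 0.175 without a mouse. The causes were not tested. The fitted sign changed under at least 1 alternative for 19 of 31 members in that comparison, 6 of 31 between caffeine and vehicle and 10 of 31 between caffeine and WT, none larger than 0.24 in size. Between caffeine and vehicle, Grm8 was called in 8 of 10 alternatives that kept every mouse of the compared groups. Over all genes, 153 were called between caffeine and vehicle, 9 with lane as covariate, 987 with no filter, and 0 to 341 without a mouse, and of these calls 24.2% were upward, which became 39.1% with the exon-length and 44.6% with the GC correction. No paired analysis was possible because replicate numbers come from accession order.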
